A study of Mus musculus with 24 samples.

Results

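The question addressed here is whether loss of FcRγ shifts transcript levels of mouse NK cells by a different amount in tumour-bearing lung than in naive spleen. The measure is the interaction of genotype and tissue: the KO effect in lung (KO minus WT, log2) minus the KO effect in spleen. It used 16 of the 24 libraries of the series, namely those of NK cells from naive WT spleen, naive FcRγ KO spleen, WT tumour-bearing lung and FcRγ KO tumour-bearing lung, with 4 libraries in each group. The other 8 libraries, from IL-15-treated spleen, did not enter this test. The 16 libraries share their cell type label, and all of them, those from lung included, carry the treatment label Naive. Each group's 4 libraries are described by the submitters as biological replicates. The sources used here do not state the strain, age, allele, tumour or sort, nor whether spleen and lung came from the same mice. Tissue and the presence of a tumour cannot be told apart in this design.

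FcRγ, encoded by Fcer1g, is a small membrane adaptor with an ITAM, a tyrosine motif that recruits Syk-family kinases once phosphorylated. In NK cells it pairs with the Fc receptor CD16 and with the natural cytotoxicity receptor NKp46. NK cells of the lung and of the spleen differ in maturity, in adhesion and in exposure to cytokines, so the same adaptor can be lost in cells with unlike baselines.

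Fcer1g was the check of the labels. It stood at 601 to 764 CPM (counts relative to the scaled total of each library) in the WT spleen libraries and at 465 to 716 CPM in the WT lung libraries. In KO it was read at 1.19 to 6.52 CPM in spleen and at 12.2 to 15.4 CPM in lung, so genotype separated all 16 libraries. The sources used here do not state which part of the gene the allele removes. In units of 1e6 counts, depth ran from 24.6 to 32.1 in WT spleen, 9.68 to 27.5 in KO spleen, 9.77 to 27.0 in WT lung and 25.0 to 26.7 in KO lung. KO spleen replicate 1 and WT lung replicate 1 were the shallow libraries, and on principal components KO spleen replicate 1 stood apart on component 2 (12.1% of the variance) and WT lung replicate 1 on component 3 (7.8%). Summed CPM of 10 NK cell markers was 19867 to 22050 in WT spleen and 14609 to 17317 in KO spleen. In lung it was 12210 to 17338 in WT and 10820 to 12527 in KO, with no marker at 0 in any group. The markers moved unequally in spleen. Gzma, the most abundant, averaged 8033 CPM in WT and 5586 in KO, Klra8 1182 and 595, and Ncr1 1169 and 1062. Eomes alone was higher in KO spleen, at 602 and 646 CPM.

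Of 13766 genes tested with edgeR's quasi-likelihood test, 71 had an interaction at an adjusted p under 0.05, which is 0.516% of those tested. In 8 of them (0.0581%) the KO effect was higher in lung, called a positive interaction here, and in 63 (0.458%) it was lower in lung, called a negative one. Without adjustment 1690 genes had a p under 0.05. In the same fit the KO effect was called for 2352 genes in spleen (17.1%). Of these, 1368 (9.94% of genes tested) were higher and 984 (7.15%) lower in KO. In lung it was called for 63 genes (0.458%), with 20 (0.145%) higher and 43 (0.312%) lower in KO. The median interaction over all genes tested was −0.02.

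Most of the negative genes followed a single pattern. They were low in WT spleen, higher in KO spleen and highest in lung, where WT and KO libraries lay close together. Of the 63, 62 were higher in KO spleen, 61 of them with a KO effect called in spleen alone. Their median KO effect was 1.46 log2 units in spleen and 0.08 in lung, and in 60 of 63 the lung effect lay within 0.5 log2 units of 0. These effects are the terms of the contrast that chose the genes, so they describe the genes and support nothing further.

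**Figure D1:**
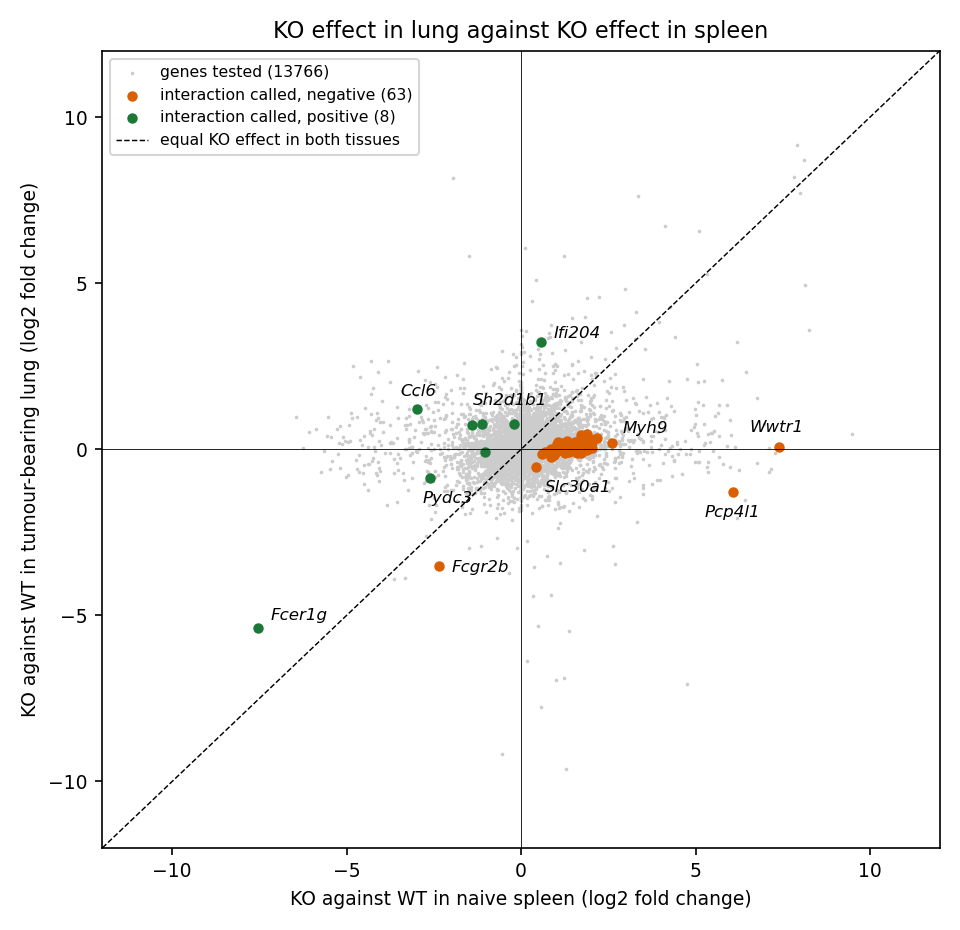
Each point is a gene, with its KO effect in naive spleen on the x axis and in tumour-bearing lung on the y axis (log2 fold change); the dashed line marks equal effects. The 63 genes with a negative interaction (orange) lie mostly to the right of 0 and near 0 in lung, and the 8 with a positive one (green) lie above the dashed line.

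Of the 71 genes, 4 remained called under all 28 other settings tried, which include leaving out each library: Myh9, Hnrpdl and Setbp1 with a negative interaction and Ccl6 with a positive one. For one gene of each sign the 250 bases before the RefSeq transcription start are shown (GRCm38.p6, minus strand, 5′ to 3′), with the GC box letters GGGCGG or their complement CCGCCC in capitals. The windows lie directly before the annotated start of each gene, at chr15:77842176-77842425 for Myh9 and chr11:83593088-83593337 for Ccl6.
Myh9: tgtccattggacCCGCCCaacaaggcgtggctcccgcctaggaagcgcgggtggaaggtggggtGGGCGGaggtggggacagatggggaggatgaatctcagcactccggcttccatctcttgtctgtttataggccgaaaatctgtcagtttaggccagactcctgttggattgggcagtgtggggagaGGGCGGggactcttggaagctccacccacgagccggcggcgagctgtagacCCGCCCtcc
Ccl6: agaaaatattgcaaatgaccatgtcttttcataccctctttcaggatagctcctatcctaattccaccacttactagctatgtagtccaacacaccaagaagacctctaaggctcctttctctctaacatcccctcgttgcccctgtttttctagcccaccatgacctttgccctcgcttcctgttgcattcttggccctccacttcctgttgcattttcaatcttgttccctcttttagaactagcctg
The Myh9 window held 4 GC box matches on either strand and the Ccl6 window none. Windows of the same length, taken from the first listed RefSeq start, matched 9980 of the tested genes, and 58.7% of them held the motif. Among the negative genes 49 matched and 34 (69.4%) held it, and among the positive genes 1 of 6 held it. Median GC content of the transcripts was 54.9% for the negative genes, 43.9% for the positive ones and 50.0% for all genes tested. The part of base composition in these shares was not tested. The letters CCAAT or ATTGG, which do not overlap the GC box motif, stood in 34.7% of the negative genes' windows and in 36.8% of all.

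The 63 genes were grouped by role after their values were seen. The share of each role among all genes tested was not counted, so the group sizes only order the description. Genes of the actin cortex and of motors made up 9 of the 63. Myh9, the heavy chain of non-muscle myosin IIA, was read at 132, 66.0, 53.9 and 109.9 CPM in the WT spleen libraries and at 816, 557, 378 and 448 CPM in KO spleen. In lung it was read at 839, 1474, 1562 and 1346 CPM in WT and at 1426, 1615, 1425 and 1469 CPM in KO. All 4 KO spleen libraries lay above every WT spleen library, while the WT and KO lung libraries overlapped. Its KO effect was 2.60 ± 0.27 log2 units (± standard error) in spleen and 0.18 ± 0.26 in lung, an interaction of −2.42 ± 0.37 (edgeR adjusted p = 0.00874). Tln1, which encodes talin and couples integrins to actin, stood at 113 to 318 CPM in WT spleen, 757 to 1233 in KO spleen, 735 to 1244 in WT lung and 1117 to 1309 in KO lung. Here the KO spleen range reached that of lung, and the interaction was −1.82 ± 0.34 (edgeR adjusted p = 0.0292). Plec, the cytoskeletal linker plectin, had an interaction of −1.91 ± 0.37, with 29.1 to 51.5 CPM in WT spleen and 91.6 to 220 in KO spleen. The lung groups overlapped for Plec, at 232 to 554 CPM in WT and 366 to 514 in KO. The remaining 6 were Spna2 and Spnb2 (spectrins), Ahnak (a giant scaffold protein), Myo9b (an unconventional myosin), Dync1h1 (the dynein heavy chain) and Mtap7d1 (a microtubule-associated protein). Their interactions lay between −1.71 and −1.33, and their lung KO effects between −0.10 and 0.23.

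Centrosome and spindle pole genes made up 5 of the 63: Cdk5rap2, Nin, Cep250, Pcnt and Numa1. Their spleen KO effects ran from 1.49 to 2.02 log2 units and their lung KO effects from 0.16 to 0.42. Numa1, which organises spindle poles, was read at 24.8, 12.7, 11.7 and 23.3 CPM in WT spleen and at 112, 67.3, 50.1 and 66.9 CPM in KO spleen. In lung it stood at 117, 237, 245 and 241 CPM in WT and at 244, 301, 221 and 250 CPM in KO. WT lung replicate 1 was the low library there. The interaction of Numa1 was −1.75 ± 0.38 (edgeR adjusted p = 0.0412).

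The largest named role group after the mixed one was chromatin and transcription, with 15 genes. Kdm6b, a histone H3 lysine 27 demethylase, was read at 6.50, 4.34, 3.73 and 8.76 CPM in WT spleen and at 26.9, 25.4, 18.2 and 23.4 CPM in KO spleen. Lung levels were far higher, at 123, 182, 204 and 185 CPM in WT and at 222, 219, 201 and 201 CPM in KO. Its interaction was −1.72 ± 0.29 (edgeR adjusted p = 0.0203). The KO spleen libraries of Kdm6b lay above every WT spleen library and below every lung library. Setbp1, which encodes a SET-binding nuclear protein, stood at 6.27 to 8.96 CPM in WT spleen and 21.1 to 30.2 in KO spleen, against 36.5 to 55.7 in WT lung and 51.3 to 67.0 in KO lung (interaction −1.50 ± 0.23, edgeR adjusted p = 0.00874). Subunits of remodelling complexes were among them, with interactions of −1.12 for Smarca4, −0.96 for Arid1a and −1.13 for Chd3. So were Wbp7, a histone methyltransferase gene now called Kmt2b (−1.36), and the acetyl-lysine reader Brd2 (−0.77). Gse1, Irf2bp2, Zbtb38, Sbno2 and Tnrc18 ranged from −1.81 to −0.99. Wwtr1, which encodes the Hippo pathway coactivator TAZ, had 0 counts in all 4 WT spleen libraries. It had 56 counts over the 4 KO spleen libraries, at least 22.8-fold higher than a floor of 3 counts over the WT spleen group. KO spleen replicate 1 held 28 of these counts, and without it the bound was 13.0-fold. Its levels were 0.0755 to 2.57 CPM in KO spleen, 1.33 to 3.86 in WT lung and 2.02 to 4.24 in KO lung. Its fitted interaction of −7.31 is no bound. Fibroblast and stroma markers (11) summed to 3.94 to 6.02 CPM in WT spleen and 7.44 to 24.2 in KO spleen, highest in KO replicate 1. In lung they summed to 15.7 to 40.5 CPM in WT and 21.8 to 89.1 in KO. The endothelial markers Cdh5 and Cldn5 were at 0 in KO spleen and averaged 15.4 and 22.3 CPM in WT lung. The part of such cells in the Wwtr1 counts was not tested.

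RNA-binding and processing genes made up 9 of the 63. Hnrpdl, now named Hnrnpdl, encodes a nuclear ribonucleoprotein that binds AU-rich RNA. It was read at 51.7, 40.6, 37.6 and 37.1 CPM in WT spleen and at 86.5, 112, 121 and 109 CPM in KO spleen. The lung libraries read 206, 241, 314 and 264 CPM in WT and 239, 232, 248 and 255 CPM in KO. The spleen genotypes did not overlap and the lung genotypes did, and the interaction was −1.44 ± 0.20 (edgeR adjusted p = 0.00378). Cirbp, the cold-inducible RNA-binding protein, was read at 55.4, 19.2, 25.2 and 18.5 CPM in WT spleen and at 115, 95.4, 128 and 125 CPM in KO spleen. In lung it stood at 109, 108, 119 and 109 CPM in WT and at 120, 124, 163 and 140 CPM in KO. Every KO spleen library of Cirbp lay above all WT spleen libraries and 3 of the 4 lay within the range of lung. The interaction was −1.67 ± 0.34 (edgeR adjusted p = 0.0342). Upf1 and Smg5, both of nonsense-mediated decay, had interactions of −1.33 and −0.87, and the nuclear pore gene Tpr one of −1.46. The helicase genes Ddx46 and Dhx38, and Larp1 and Zc3h13, lay between −1.08 and −0.83.

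Nucleolar and RNA polymerase I genes made up 4 of the 63. Nolc1, a nucleolar phosphoprotein, had an interaction of −1.06 ± 0.22, with 12 to 25.1 CPM in WT spleen, 34.8 to 39.1 in KO spleen, 64.5 to 80.3 in WT lung and 66.3 to 74.7 in KO lung. Polr1a, the largest subunit of RNA polymerase I, had one of −0.89 ± 0.20. Its KO spleen libraries, at 25.0 to 31.3 CPM, spanned the same levels as lung (26.3 to 30.3 in WT and 24.9 to 30.5 in KO), above the WT spleen range of 11.9 to 18.0. Tcof1, a ribosomal RNA transcription factor, and Rbm19, needed for pre-rRNA processing, had interactions of −1.50 and −1.97.

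The other 19 negative genes away from Fcer1g had mixed roles. Clec2d, the ligand of the inhibitory receptor NKR-P1D, was read at 21.6, 14.3, 14.4 and 15.3 CPM in WT spleen and at 32, 52.5, 32.5 and 38.7 CPM in KO spleen. Lung levels were 199, 109.9, 100.4 and 115 CPM in WT and 124, 123, 123 and 110.5 CPM in KO (interaction −1.37 ± 0.28, edgeR adjusted p = 0.0342). The KO spleen libraries were above all WT spleen libraries and below all lung libraries. Map3k14, the kinase NIK of the alternative NF-κB pathway, had an interaction of −1.44 and the IP3 receptor gene Itpr2 one of −1.07. Ccdc88c, a regulator of Wnt signalling, and Axin2, a Wnt feedback inhibitor, had −1.82 and −1.38. Rapgef2, Pip5k1c, Iqsec1, Eea1, Rabep2, Fkbp15, Apobr, Atp10d, Dos, Rfc1, Trim8 and AC025794.1 lay between −1.83 and −0.74.

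Slc30a1, the zinc exporter ZnT1, was the single gene with KO effects called in opposite directions. It was read at 30.3, 28.5, 30.5 and 32.4 CPM in WT spleen and at 41.5, 38.1, 40.1 and 45.5 CPM in KO spleen. The lung libraries read 33.1, 40.4, 37.8 and 34.6 CPM in WT and 27.8, 26.3, 21.6 and 25.6 CPM in KO. The genotypes did not overlap in either tissue. Slc30a1 was 0.44 ± 0.12 log2 units higher in KO spleen (edgeR adjusted p = 0.0134) and 0.53 lower in KO lung (−0.53 ± 0.12, edgeR adjusted p = 0.0497), an interaction of −0.97 ± 0.16 (edgeR adjusted p = 0.0205).

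**Figure D2:**
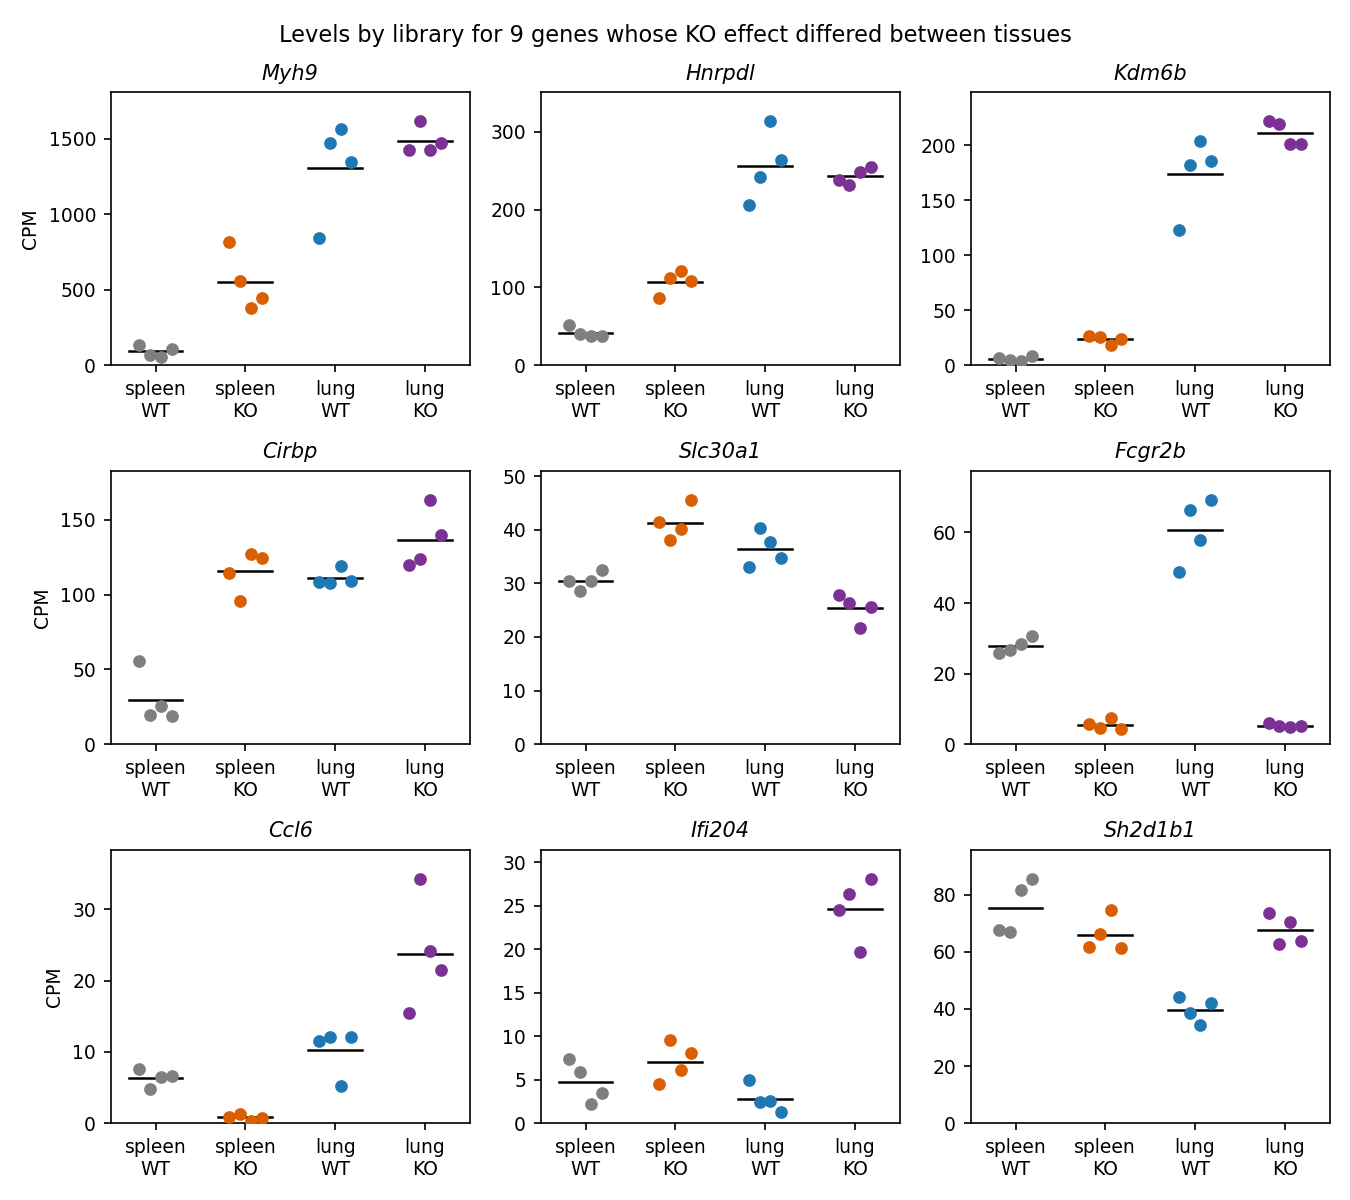
Points are CPM per library for 9 genes, 4 libraries per group, and the bar is the group mean; each y axis starts at 0. Myh9, Hnrpdl, Kdm6b and Cirbp differ by genotype in spleen and overlap or nearly so in lung, Slc30a1 moves in opposite directions, and Ifi204 and Sh2d1b1 separate by genotype in lung.

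Genes on chromosome 1 near Fcer1g took both signs. Within 10 Mb of Fcer1g 6 of 163 tested genes were called (3.68%), against 65 of 13603 elsewhere (0.478%). Fcer1g itself is counted among the 6 and the 163. Fcgr2b, the inhibitory Fc receptor for IgG, was read at 25.8, 26.6, 28.3 and 30.5 CPM in WT spleen and at 48.8, 66.4, 57.9 and 69.1 CPM in WT lung. In KO it stood at 5.60, 4.58, 7.52 and 4.27 CPM in spleen and at 5.97, 5.20, 4.86 and 5.11 CPM in lung. KO libraries of both tissues were alike and low, while WT libraries of lung lay above those of spleen. Fcgr2b was lower in KO, with KO effects of −2.34 log2 units in spleen and −3.52 in lung (interaction −1.17 ± 0.24, edgeR adjusted p = 0.0324). Ifi204, a HIN-200 gene for a DNA-sensing protein, was read at 7.43, 5.94, 2.25 and 3.5 CPM in WT spleen and at 4.50, 9.56, 6.06 and 8.04 CPM in KO spleen. In lung it stood at 4.91, 2.45, 2.51 and 1.24 CPM in WT and at 24.5, 26.3, 19.6 and 28.0 CPM in KO. The spleen genotypes overlapped and the lung ones did not, and the interaction was 2.66 ± 0.51 (edgeR adjusted p = 0.0292).

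Sh2d1b1, which encodes the SLAM receptor adaptor EAT-2, was read at 67.4, 66.8, 81.4 and 85.3 CPM in WT spleen and at 61.5, 66.0, 74.6 and 61.4 CPM in KO spleen. Lung levels were 44.2, 38.4, 34.2 and 41.9 CPM in WT and 73.4, 62.8, 70.4 and 63.8 CPM in KO. WT lung was thus the low group, and Sh2d1b1 was 0.77 ± 0.12 log2 units higher in KO lung (edgeR adjusted p = 0.00145; interaction 0.96 ± 0.17, adjusted p = 0.0246). Pydc3, a pyrin-domain gene of the same cluster, had 57.5 to 70.0 CPM in WT spleen and 3.76 to 14.2 in KO spleen, against 24.5 to 35.6 in WT lung and 14.1 to 22.4 in KO lung (interaction 1.73 ± 0.35). Pcp4l1, chosen after its values were seen, was read at 0 to 0.0637 CPM in WT spleen and at 0.842 to 2.60 CPM in KO spleen, with 0.241 to 1.06 in WT lung and 0.115 to 0.753 in KO lung. Fcer1g itself had an interaction of 2.15 ± 0.36 (edgeR adjusted p = 0.0199), from KO effects of −7.54 in spleen and −5.38 in lung. Fcgr2b, Ifi204, Sh2d1b1 and Pydc3 have close copies in the genome, so their separate counts are uncertain.

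The positive genes away from chromosome 1 were Ccl6, Gzmk, Crem and Dmrta1, all lower in KO spleen. Ccl6, a CC chemokine made by myeloid cells and also read in NK cell libraries, was at 7.65, 4.78, 6.44 and 6.59 CPM in WT spleen and at 0.917, 1.24, 0.243 and 0.793 CPM in KO spleen. The lung libraries read 11.6, 12.1, 5.18 and 12.1 CPM in WT and 15.4, 34.2, 24.1 and 21.4 CPM in KO. KO spleen lay below and KO lung above every WT library of its tissue. Ccl6 fell by 3.00 log2 units in KO spleen (edgeR adjusted p = 6.17e-05), its KO effect in lung was 1.22 ± 0.32 (edgeR adjusted p = 0.136), and the interaction was 4.21 ± 0.50 (edgeR adjusted p = 0.000894).

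Markers of myeloid cells moved with Ccl6 in lung. Summed over 15 monocyte and macrophage markers, they stood at 6.84 to 11 CPM in WT spleen, 8.35 to 17.8 in KO spleen, 78.5 to 174 in WT lung and 193 to 755 in KO lung. KO lung replicate 2 was highest and WT lung replicate 3 the lowest lung library both for these markers and for Ccl6. Lyz2, the most abundant of them, averaged 90.3 CPM in WT lung and 297 in KO lung, and Csf1r 2.61 and 4.24. Of the 15 markers, 2 in WT spleen and 3 in KO spleen were at 0 in every library, Marco among them in both, and none in lung. Neutrophil markers (11) summed to 3.77 to 24.6 CPM in WT lung and 10.1 to 42.3 in KO lung, with Elane and Mpo at 0 in WT and Elane and Ly6g at 0 in KO. Of other marker lists in lung, B cell markers summed to 109 to 136 CPM in WT and 142 to 186 in KO, melanocytic ones to 2.66 to 25.2 and 12.7 to 65.6, and lung epithelial ones to 133 to 220.3 and 122 to 489. KO lung replicate 2 was highest for the epithelial list. In spleen the B cell markers summed to 175 to 211 CPM in WT and 155 to 210 in KO. The epithelial ones summed there to 143 to 177 CPM in WT and 101 to 180 in KO. Hopx, of the epithelial list, averaged 145 CPM in WT spleen. Members of that list went both ways in lung: Hopx averaged 109 CPM in WT and 81.3 in KO, and Scgb1a1 29.8 and 132. Of each of these lists no marker was at 0 throughout a lung group. In spleen, 9 mast cell and basophil markers summed to 75.7 to 120 CPM in WT and 125 to 218 in KO. Kit averaged 95.5 CPM in WT spleen and 176 in KO spleen. Other members went the opposite way there: Prss34 averaged 1.63 CPM in WT and 0 in KO, Hdc 1.10 and 0.113, and Mcpt8 0.887 and 0.0183. Fcer1a, Ms4a2 and Cpa3 were also lower in KO spleen, and Mcpt4 and Tpsb2 were at 0 in both genotypes. The part of these cells in the result was not tested. In bulk RNA, fewer cells of a type and less RNA per cell cannot be told apart.

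Gzmk, which encodes granzyme K, was read at 5.75, 10.3, 18.6 and 15.4 CPM in WT spleen and at 4.77, 4.65, 3.96 and 5.32 CPM in KO spleen. In lung it stood at 2.45, 1.61, 1.64 and 2.19 CPM in WT and at 2.61, 4.24, 2.76 and 3.33 CPM in KO. KO was below WT in spleen and above WT in lung in every library, with an interaction of 2.15 ± 0.45 (edgeR adjusted p = 0.0346) and a lung KO effect that did not pass (0.73 ± 0.32, adjusted p = 0.513). Crem, a cyclic AMP-responsive transcription factor gene, had 22.2 to 31.8 CPM in WT spleen and 10 to 14.9 in KO spleen. Its lung libraries overlapped at 185 to 227 CPM in WT and 166 to 215 in KO (interaction 0.94 ± 0.20, adjusted p = 0.0346). Dmrta1, a DM-domain transcription factor gene, had 7.65 to 17.5 CPM in WT spleen and 4.25 to 8.00 in KO spleen, with 4.95 to 6.87 in WT lung and 7.41 to 12.8 in KO lung (interaction 1.87 ± 0.37, adjusted p = 0.0324).

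Read the other way, the interaction is the tissue difference in KO minus that in WT. The tissue difference was called for 47% of all genes in WT (27.1% higher in lung, 19.9% lower) and for 39.9% in KO (22.6% higher, 17.3% lower). Of the 63 negative genes, 62 were higher in lung than in spleen in WT, and 46 were in KO, where 1 was lower. Their median lung minus spleen difference was 2.24 log2 units in WT and 0.98 in KO. Summed over the 63 genes, levels were 1878 to 3255 CPM in WT spleen, 5718 to 8879 in KO spleen, 10174 to 15436 in WT lung and 13431 to 15409 in KO lung. In 62 of the 63 all KO spleen libraries lay above every WT spleen library. Over all genes, which were not chosen by this contrast, the share was 9.66%. KO and WT lung libraries did not overlap in 8 of the 63 (8.59% of all genes). The 4 KO spleen libraries each had a median rise over the WT spleen mean of 1.63, 1.54, 1.22 and 1.37 log2 units, with 62 of the 63 genes above that mean in each. These counts and levels come from the same libraries that chose the 63 genes, so they describe the genes and support nothing further.

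The 63 negative genes were long. Their median exon length was 7670.5 bases against 4123.5 for all genes tested, and 22 of 62 with a known length (35.5%) reached 10 kb, against 8.66% of all. The interaction moved with length over all genes, from a median of 0.16 under 1.5 kb to −0.20 at 10 kb and over. Over the same bins the spleen KO effect went from −0.28 to 0.34 and the lung KO effect from −0.11 to 0.12. A length balance per library, the level of genes of 10 kb and over minus that of genes under 1.5 kb, was −0.76 to −0.35 log2 units in WT spleen and −0.23 to 0.26 in KO spleen. In lung it was 0.19 to 0.51 in KO and 0.33 to 0.48 in WT replicates 2 to 4, but −0.69 in WT replicate 1. With an offset for length and GC content 94 genes were called (11 positive, 83 negative), and 62 of the 71 remained. The part of length balance beyond this offset was not tested.

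**Figure D3:**
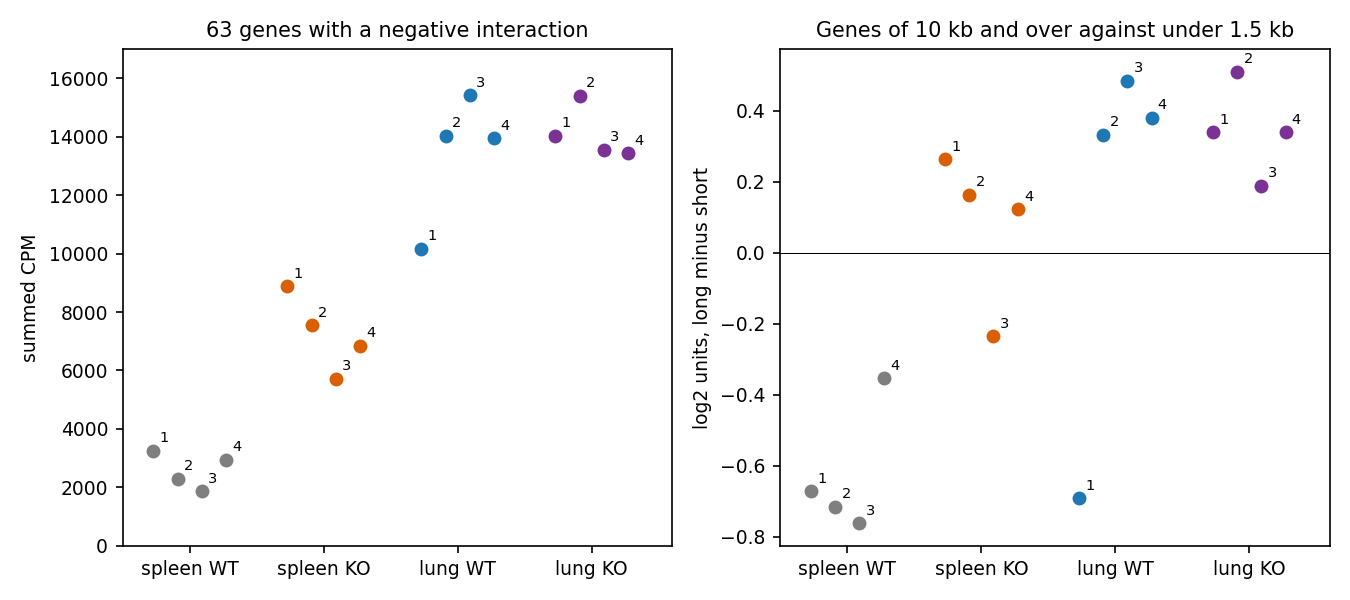
Left, summed CPM of the 63 genes with a negative interaction in each library (numbers are replicates; y axis from 0); right, the level of genes of 10 kb and over minus that of genes under 1.5 kb (log2 units). The summed level is lowest in WT spleen, intermediate in KO spleen and highest in lung, and WT lung replicate 1 stands with WT spleen in the right panel.

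The number of calls rested on single libraries more than the values did. Leaving out WT lung replicate 1 gave 560 calls (202 positive, 358 negative), among them all 71. Leaving out WT spleen replicate 1 or KO spleen replicate 3 gave 166 and 107. Leaving out WT spleen replicate 2, 3 or 4 gave 6, 14 and 32, KO spleen replicate 2 or 4 gave 6 and 34, and leaving out any other lung library gave 4 to 8. The sign of the interaction stayed the same for the 71 genes in each of the 28 settings that gave a value, which for Pcp4l1 were 27. Of the 71 adjusted p-values, 5 were under 0.02 and the others lay between 0.02 and 0.05.

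**Figure D4:**
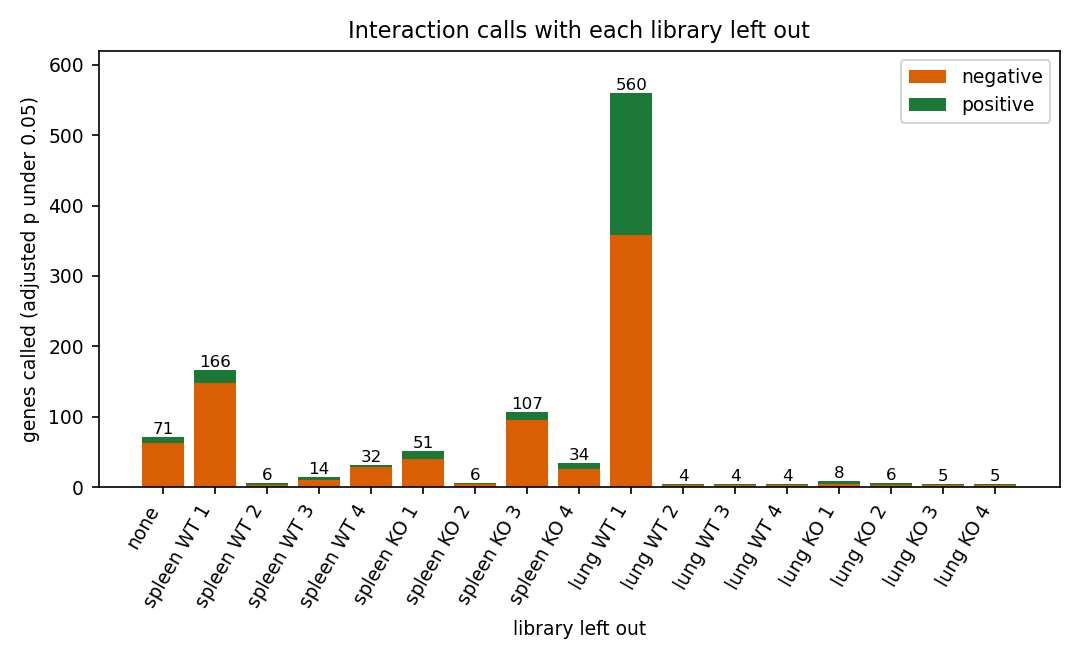
Bars give the number of genes with a called interaction when the library on the x axis is left out (orange negative, green positive; none means all 16 libraries). Counts run from 4 to 560 against 71 with all libraries.

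Interaction calls in gene lists of pathways that FcRγ loss or tissue could touch were set beside the 0.516% called over all genes. KO effects of list members are to be read beside all genes tested, of which 9.94% rose and 7.15% fell in KO spleen. In KO lung 0.145% rose and 0.312% fell. A list described here was not tested as a set. Over all genes 52.1% had an interaction below 0, and with the length and GC offset 7751 of 13766 did. Of 46 tested genes for large cytoskeletal, motor and giant proteins, 8 had a negative interaction and none a positive one, 45 were below 0, and the median was −0.66. In spleen 33 of them were higher in KO and none lower, and in lung none was called either way. The list was chosen with the spleen results known, so its direction is not independent evidence. Without WT lung replicate 1, 23 of the 46 were called negative. Under that setting 201 of the same 13766 genes were called positive and 358 negative. Without both shallow libraries 318 were called positive and 487 negative, of 13743. List counts under these settings are to be read beside these numbers, not beside the 0.516%.

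Many chaperone genes fell in KO spleen and some fell in KO lung. Of 39 genes for HSP70, HSP110, HSP40 and HSP90 chaperones, 21 fell in KO spleen and 15 in KO lung, and none rose in either. Over all genes 7.15% fell in KO spleen and 0.312% in KO lung. No gene of the list had an interaction (median 0.08, and −0.08 with the length and GC offset). Hsp90ab1, the constitutive cytosolic HSP90, was 0.87 log2 units lower in KO spleen and 0.99 lower in KO lung (−0.87 and −0.99), an interaction of −0.12 with a 95% interval of −0.46 to 0.22. For Hsp90aa1, the inducible form, the interval was −0.41 to 0.57. The interval of Hspa8, the constitutive HSP70, was 0.31 to 1.31 around an interaction of 0.81 (edgeR adjusted p = 0.155), with KO effects of −1.55 in spleen and −0.74 in lung. All 8 CCT chaperonin genes fell in KO spleen and 3 in KO lung, and for Cct4 the interaction was 0.10 (−0.22 to 0.43), against −0.01 with the offset.

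Short, abundant transcripts leaned the other way. Of 79 cytosolic ribosomal protein genes none was called, although 77 had a positive interaction and the median was 0.36. In spleen 15 fell in KO (7.15% of all genes did) and in lung none did. Rps7, a small-subunit protein gene, averaged 1274 CPM in WT spleen and 828 in KO spleen, against 811 and 820.3 in WT and KO lung (interaction 0.64, 95% interval 0.13 to 1.15, edgeR adjusted p = 0.278). Without WT lung replicate 1, 52 of the 79 were called positive (median 0.73). The offset gave a median of 0.24. All 15 mitochondrial genome transcripts had a positive interaction and none was called (median 0.93). The median was 0.56 without KO spleen replicate 1, which had the lowest mitochondrial share, and 0.53 with the offset. Their share of all counts was 4.89 to 6.31% in WT spleen, 1.18 to 9.28% in KO spleen, 3.17 to 6.14% in WT lung and 8.49 to 10.7% in KO lung. Among 62 nuclear genes for oxidative phosphorylation subunits 20 fell in KO spleen, none was called in lung and none had an interaction (median 0.15). Without WT lung replicate 1, 10 of the 62 were called positive (median 0.39), while with the offset the median was −0.00 and 32 lay below 0.

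Away from Fcer1g, immune lists held few calls. Of 26 tested adaptors and partner receptors of FcRγ, CD3ζ and DAP12, 2 had a positive interaction (Fcer1g and Sh2d1b1) and 1 a negative one (Fcgr2b). Those called were Fcer1g itself and genes within 10 Mb of it. Slamf6, a SLAM family receptor near Fcer1g, was higher in KO in both tissues (1.35 in spleen and 2.26 in lung) with an interaction of 0.91 (edgeR adjusted p = 0.138). Of 50 proximal ITAM and calcium signalling genes none was called. Syk, a kinase that docks on phosphorylated ITAMs, was higher in KO spleen (0.71, adjusted p = 0.00274) with a lung KO effect of 0.01, and an interaction of −0.70 (95% interval −1.12 to −0.27, edgeR adjusted p = 0.151). Of 28 Ly49, CD94-NKG2 and other lectin receptor genes Clec2d alone was called. The median was 0.27 with 8 of the 28 below 0, and with the length and GC offset it was −0.03 with 16 below 0. Without both shallow libraries 4 of the 28 were called positive. Klra8, the activating receptor Ly49H, fell by 0.99 in KO spleen and had a lung effect of −0.35 (interaction 0.64, 95% interval 0.18 to 1.10), but with the offset its interaction was 0.14 (edgeR adjusted p = 0.811). Its close Ly49 relatives make its separate count uncertain. In the granule and death ligand list 1 of 27 was called, Gzmk, whose call was lost in 15 of 28 other settings (edgeR adjusted p = 0.0658 with the offset). Of 55 interferon-stimulated genes none was called and 13 lay below 0 (22 with the offset, where the median went from 0.18 to 0.08). Oas3, an antiviral oligoadenylate synthetase, had 1.5 (edgeR adjusted p = 0.0652, and 0.0239 with the offset). Without WT lung replicate 1, 3 of the 55 were called positive.

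Members of transcription and growth lists lay below 0 more often than genes at large (52.1%), by less for transcription factors with the offset. Of 40 NK cell transcription factor genes none was called and 32 lay below 0 (25 with the offset, where the median went from −0.19 to −0.07). Bach2, a repressor of effector programmes, had −0.92 (95% interval −1.51 to −0.33). Of 45 MYC targets and ribosome biogenesis genes 2 were called negative, Nolc1 and Polr1a, and 35 lay below 0; without WT lung replicate 1, 5 were called negative, and without KO spleen replicate 1 or with the offset 1 was. Of 45 immediate early genes Crem alone was called, with a positive interaction, while 32 lay below 0. Jun, an AP-1 subunit, averaged 31.5 and 62.3 CPM in WT and KO spleen and 774 and 714 CPM in WT and KO lung (interaction −1.09, edgeR adjusted p = 0.188). Of 40 sterol and fatty acid genes none was called. Among them Fasn, which makes long-chain fatty acids, was 1.11 higher in KO spleen, with a lung effect of 0.20 (interaction −0.91, edgeR adjusted p = 0.0581; −0.55 with the offset). Of 37 genes of ILC1, tissue residency and immature NK cells 10 rose in KO spleen and 3 in KO lung, none fell and none had an interaction. Over all genes 9.94% rose in KO spleen and 0.145% in KO lung. Il7r, the IL-7 receptor chain, rose in both (0.59 in spleen and 1.49 in lung, interaction 0.89, edgeR adjusted p = 0.186).

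**Figure D5:**
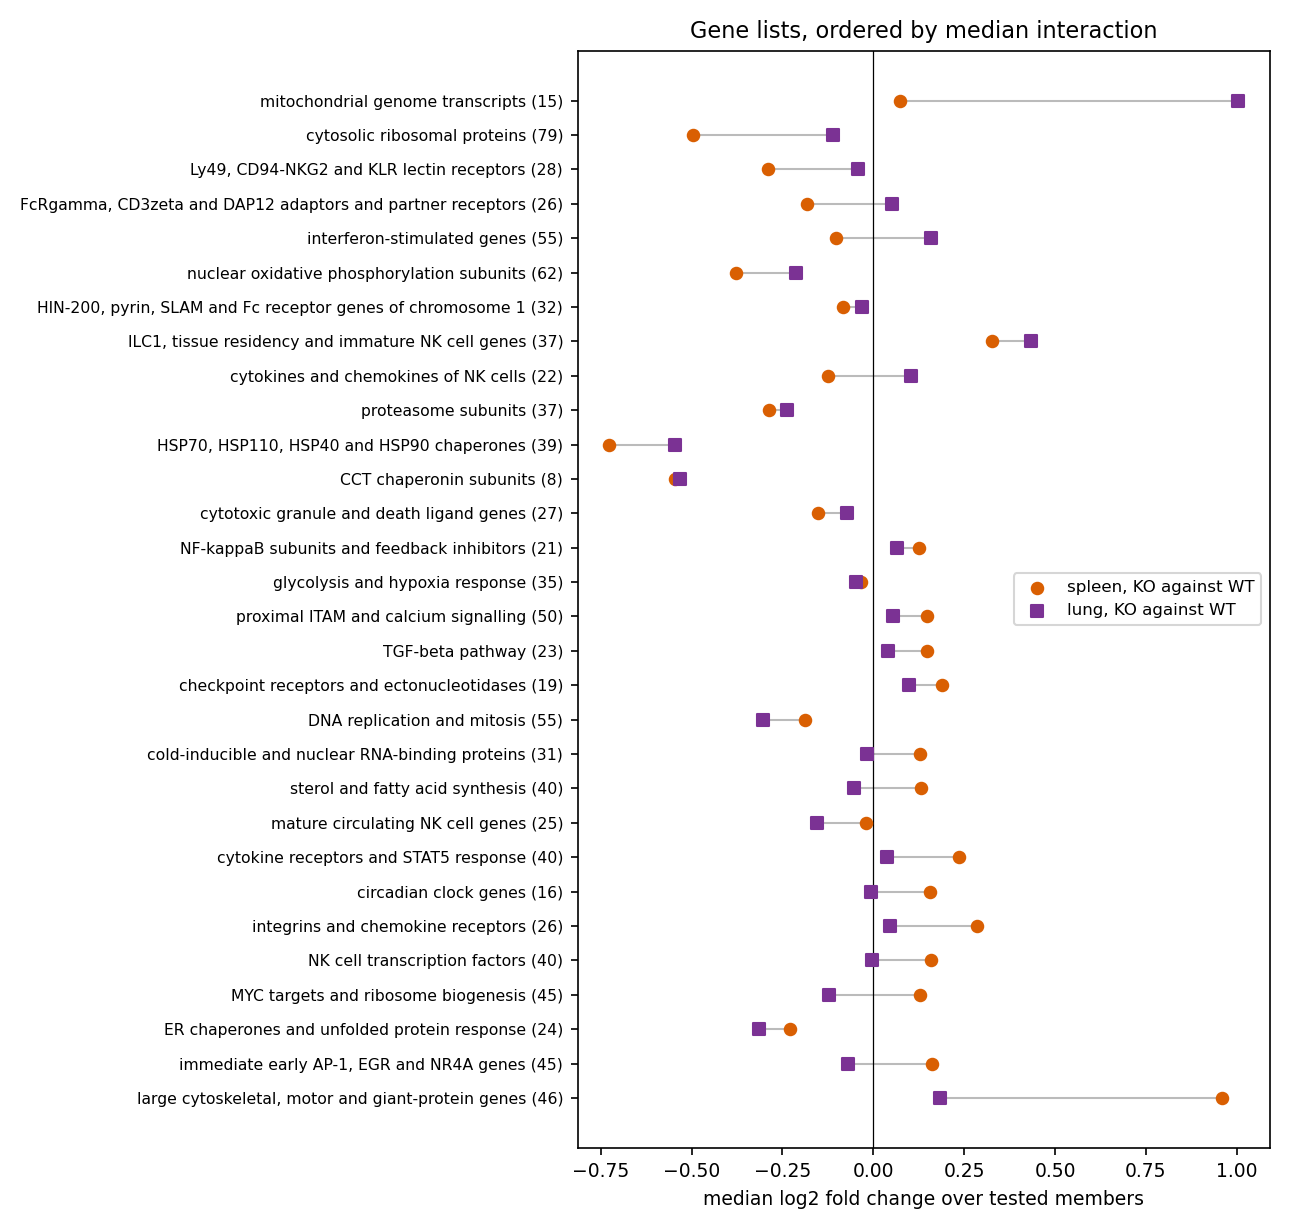
Each line is a gene list with its number of tested genes, ordered by median interaction; circles give the median KO effect in spleen and squares that in lung (log2 fold change). The cytoskeletal list is at 0.96 in spleen and 0.18 in lung, while the HSP chaperones are at −0.73 and −0.55.

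The 8 IL-15-treated spleen libraries, which the interaction did not use, gave the KO effect of the same genes in a further state (a fit of all 24 libraries, in which 25 of 14275 genes, 0.175%, were called between KO and WT under IL-15). Of the 63 negative genes 1 was called there, and their median KO effect was 0.10 log2 units against 0.00 over all genes; 51 of the 63 lay above 0 (81.0%, against 50.3% of all). Myh9 averaged 1532 ± 363 CPM in WT and 1723 ± 199 in KO under IL-15 (mean ± SD, n = 4 libraries each), near its lung levels and far above naive WT spleen. Hnrpdl averaged 178 ± 11.1 and 169.6 ± 10.7 CPM there, Cirbp 96.1 ± 15.6 and 94.5 ± 11.9, and Kdm6b 37.4 ± 12.8 and 46.5 ± 6.73. The gene called was Fcgr2b, which under IL-15 was higher in KO (8.65 ± 1.11 against 3.84 ± 1.49 CPM, log2 change 1.16, edgeR adjusted p = 0.0102), the opposite of naive spleen and lung. Ifi204 was higher in KO under IL-15 as it was in lung (12.9 ± 3.75 against 3.07 ± 0.41 CPM, edgeR adjusted p = 0.00202). Ccl6 was low there, at 0.113 ± 0.10 CPM in WT and 0.435 ± 0.105 in KO.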

How the data were processed

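The deposited table holds expected counts made by the authors with RSEM, with 38215 genes in rows and 24 libraries in columns. The build was GRCm38 and the tools were RSEM 1.2.30, STAR 2.5.2a and cutadapt 1.9, per the submitters' processing notes. The sources used here do not state their settings or whether counting used strand. Per the labels' protocols, poly(A) RNA was extracted with an RNeasy Plus Micro kit and made into directional libraries. Of the deposited expected counts of the 16 libraries, 5.19% were not whole; they were rounded. Groups follow the sample titles.

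In R 4.3.3, edgeR 4.0.16 fitted all 16 libraries (quasi-likelihood F test, TMM scaling, genes kept by filterByExpr) as 4 groups without covariates, with Benjamini-Hochberg adjustment over 13766 genes and a threshold of 0.05. Standard errors are the log2 value divided by the root of F, and 95% intervals come from the same fit. CPM use TMM-scaled totals. No library repeated another, and intervals cover neither mapping nor annotation error. The test was checked on simulated counts that held neither tissue differences nor a length imbalance between libraries, so the check does not extend to those. Promoters were RefSeq's. GENCODE M21 gave exon length and GC content for 98.6% of tested genes.

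The 30 gene lists, the 15 marker lists and the members were chosen with earlier results of these data known. The rule for named genes took Fcer1g, up to 12 largest interactions per direction with a mean of at least 1 CPM, up to 3 called genes per list and genes with opposite KO effects, 27 in all. It also let up to 2 genes be named for a list without calls. Other genes, and the grouping of the 71 genes by role, were picked after their values were seen. Alternatives were DESeq2 1.42.0, its size factors, voom weights (limma 3.58.1), other filters, all 24 libraries, replicate blocks, a length and GC offset, mitochondrial genes removed and libraries left out. The offset without both shallow libraries was added after the data were seen. A few of the genes counted here are not reported by name.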

Additional observations from a re-analysis of the deposited data

Results flagged for a closer look

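The KO effect differed between spleen and lung, by the test of the interaction itself, for 8 genes with a positive and 63 with a negative value, as described above.

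Single libraries stood far from the other 3 of their group (a gap to the nearest library above Dixon's critical share of the range) in 11 of 124 groups of values examined, where chance gives about 1 in 20, and 5 of the 11 were WT lung replicate 1. In that library the total was 9.77 (in 1e6 counts), the length balance −0.69 log2 units, Rbm19 8.03 CPM, Numa1 117 CPM and Clec2d 199 CPM. WT lung replicate 3 stood apart for Ccl6 (5.18 CPM, low) and Cirbp (119 CPM, high), and WT spleen replicate 1 for Clec2d (21.6 CPM, high). Among KO lung libraries, replicate 2 was high in mitochondrial share (10.7%) and Tnrc18 (105.5 CPM), and replicate 4 was low in Clec2d (110.5 CPM).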

How the results depend on the processing

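Signs of the 71 interactions were the same in each of 28 other settings that gave a value (27 for Pcp4l1, which the 1 CPM filter removes), while their number was not. It was 291 with DESeq2 (46 positive, 245 negative), 139 without a filter, 164 with all 24 libraries, 817 with voom weights (258 positive, 559 negative), 807 without both shallow libraries (319 positive, 488 negative) and 438 with the length and GC offset as well (chosen after the data were seen). Leaving out 1 library gave 4 to 560. DESeq2 size factors, a filter at 1 CPM, the offset alone and removal of mitochondrial genes gave 76, 89, 94 and 54. The KO effect in spleen was called for 1325 to 3144 genes with 1 library left out (1325 without WT spleen replicate 3 and 1540 without replicate 2, against 2352). In lung it was called for 40 to 108 genes (40 and 41 without KO lung replicate 2 or 3, 108 without KO spleen replicate 1, against 63), and for 168 with DESeq2, 103 with all 24 libraries, 327 with voom weights, 179 without both shallow libraries and 184 with the offset as well. The cause of these shifts was not tested. Calls of lung against spleen stayed within 1.5 times in both genotypes under DESeq2, its size factors, the filters, all 24 libraries, the replicate block and libraries left out; the other settings were not run for them.

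Replicate numbers did not pair the libraries within a tissue. The 8 correlations of same-numbered libraries there ran from −0.06 to 0.08, and 2 of 8 KO libraries correlated best with their own number. Between tissues, same-numbered libraries of a genotype correlated at −0.03 to 0.115, highest for WT replicate 4. With a replicate block 55 interactions were called, 47 of them shared, and with a replicate block within tissue 120.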
